A study of Rattus norvegicus with 35 samples.

Results

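The genes described here carry glucose into brain cells and break it down to pyruvate and lactate. They are 10 of the 15059 genes in the count table, chosen by name: the glucose transporters Slc2a1 and Slc2a3, hexokinase Hk1, phosphofructokinase Pfkm, aldolases Aldoa and Aldoc, phosphoglycerate kinase Pgk1, pyruvate kinase Pkm, and lactate dehydrogenases Ldha and Ldhb. All 10 were present and all 10 passed the filter on low counts, with 423 counts for Slc2a1 as the lowest value in any library and 16408 counts for Aldoa as the highest. The measurements are bulk RNA sequencing of hippocampus from 35 female Sprague Dawley rats in 7 groups of 5. Rats of the sham group had sham surgery at 6 months of age and kept their ovaries. All others were ovariectomized at that age (OVX) and, after a washout of 2 weeks, were injected into the peritoneum daily: OVX+Estradiol at 0.16 mg/kg, OVX+Tamoxifen at 3.23 mg/kg, OVX+Raloxifene at 9.68 mg/kg, OVX+Exemestane at 0.16 mg/kg, OVX+Anastrozole at 4.03 mg/kg, and OVX+Vehicle, whose content and schedule the labels do not describe. Tissue was taken 7 days after treatment began. Estradiol is the main ovarian estrogen, tamoxifen and raloxifene bind the estrogen receptor, and exemestane and anastrozole inhibit aromatase, the enzyme that makes estrogens. Ovariectomy leaves aromatase in brain and other tissues in place, so the OVX rats are not without every source of estrogen. The doses differ between most drugs, and the exemestane dose equals that of estradiol. An exchange of that dose with the anastrozole dose could not be checked here.

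The brain draws most of its energy from glucose. SLC2A1 carries glucose across the blood-brain barrier and into glia, and SLC2A3 is the main neuronal carrier. Hexokinase traps glucose as glucose 6-phosphate, phosphofructokinase commits it to glycolysis, aldolase splits the sugar, and phosphoglycerate kinase and pyruvate kinase make ATP. Lactate dehydrogenase interconverts pyruvate and lactate: LDHA subunits favour lactate production and LDHB subunits favour pyruvate. Aldoc is an astrocyte-enriched aldolase, whereas Aldoa is made by nearly all cells. In rodent brain, estradiol has been linked to glucose transport and glycolytic enzyme activity, which is why these genes bear on a comparison of estrogen replacement with vehicle.

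Several of these genes are textbook targets of hypoxia-inducible factors, whose core site is ACGTG or GCGTG. Only the ACGTG form was searched here. Upstream windows of 250 bases before the transcription start were taken from RefSeq (GRCr8), which held 11 windows for 8 of the 10 genes; Slc2a3 and Pgk1 had no entry. ACGTG, read on either strand, was present in 6 of the 11 windows and in 6 genes, against 16.6% of all 33469 windows of that length. Neither TATAAA, found in 12.9% of all windows, nor the full palindromic estrogen response element, found in 0.0239%, occurred in any of the 11. The windows of Ldha and Ldhb are shown because the ratio of these related genes varied with the library class described below. The windows of Slc2a1 and Aldoc are shown as members of the transporter and aldolase families that hold a match. Capitals mark ACGTG or its reverse complement CACGT. The windows are on chr1:106507842-106508091 (plus strand, Ldha), chr4:177177409-177177658 (minus strand, Ldhb), chr5:138002272-138002521 (plus strand, Slc2a1) and chr10:63715294-63715543 (plus strand, Aldoc).
Ldha: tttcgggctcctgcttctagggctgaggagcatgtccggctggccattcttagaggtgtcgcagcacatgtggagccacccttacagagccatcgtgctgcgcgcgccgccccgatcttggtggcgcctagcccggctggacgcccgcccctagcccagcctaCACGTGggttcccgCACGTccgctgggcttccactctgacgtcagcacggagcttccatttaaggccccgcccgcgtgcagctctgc
Ldhb: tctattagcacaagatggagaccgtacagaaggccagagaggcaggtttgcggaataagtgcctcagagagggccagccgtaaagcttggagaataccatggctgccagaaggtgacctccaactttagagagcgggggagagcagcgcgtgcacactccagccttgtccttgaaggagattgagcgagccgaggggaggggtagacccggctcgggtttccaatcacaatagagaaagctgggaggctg
Slc2a1: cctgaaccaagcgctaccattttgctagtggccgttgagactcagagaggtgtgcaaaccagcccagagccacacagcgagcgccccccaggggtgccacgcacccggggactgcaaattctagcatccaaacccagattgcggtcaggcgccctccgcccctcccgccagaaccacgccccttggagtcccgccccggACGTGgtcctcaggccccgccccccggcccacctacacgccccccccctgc
Aldoc: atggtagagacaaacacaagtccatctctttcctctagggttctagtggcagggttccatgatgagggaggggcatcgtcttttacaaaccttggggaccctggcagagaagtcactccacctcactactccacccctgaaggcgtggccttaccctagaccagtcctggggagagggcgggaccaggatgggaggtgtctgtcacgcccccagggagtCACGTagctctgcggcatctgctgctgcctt
Ldha held 3 matches to ACGTG, of which 2 overlap in the letters CACGTG, while Slc2a1 and Aldoc held 1 each and Ldhb held 0. The GCGTG form, or its reverse complement CACGC, was not counted or marked. It occurs in each of the windows shown, that of Ldhb included. The GC content of the Ldha window was 66.4% and that of the Ldhb window 56.4%, against a median of 51.2% over all windows. Member windows that held ACGTG ran from 47.6% (Pfkm) to 70.0% (Hk1), and all but that of Pfkm lay above this median. The share of windows with ACGTG was not compared with windows of like GC content.

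The libraries were not uniform, and this touches every result below. The shallowest library held 5.58 M counts, the deepest 12.09 M and the median library 8.01 M. A principal component of the ratio between the deposited counts and the deposited normalized table, which held 73.7% of the variance of that ratio, split the libraries into 15 of class B and 20 of class A. The labels do not name this split, and its origin was not tested. No sham and no estradiol library was of class B, against 2 of 5 given anastrozole, 3 of 5 given tamoxifen, 4 of 5 given exemestane, all 5 given raloxifene, and 1 of 5 given vehicle, so class and treatment are partly confounded. The signal recognition particle RNA Rn7sl1 took 2.90% to 3.84% of counts in class B libraries and 4.47% to 6.49% in class A libraries. Mitochondrially encoded genes took 11.3% to 14.9% in class B libraries (median 13.4%) and 8.33% to 11.5% in class A libraries (median 9.58%). Genes that define hippocampal fields were present in every library, 8 of 10 being in the table with none at 0. Sham replicate 1 stood apart: its thalamus and habenula markers summed to 485 CPM, against 204 to 298 CPM in the other 34 libraries. CPM is each count scaled to a common library size, with TMM factors for single genes and by total counts alone for marker sums. Choroid plexus tissue varied from library to library, with Ttr between 0.495 and 2767 CPM in class B libraries and between 0.862 and 2770.0 CPM in class A libraries. In bulk tissue, fewer cells of a type and less RNA per cell cannot be told apart. No label says whether replicates were dissected or prepared on separate days, so p-values measure the spread between these libraries.

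Neither transporter passed the threshold against vehicle in any group. Slc2a1, mainly of endothelium and astrocytes, averaged 96.8 ± 13.1 CPM in sham libraries, 98.1 ± 6.00 CPM with estradiol, 90.5 ± 8.55 CPM with anastrozole, 82.1 ± 8.18 CPM with tamoxifen, 83.1 ± 7.91 CPM with raloxifene, 79.4 ± 6.4 CPM with exemestane and 92.4 ± 8.35 CPM with vehicle (SD, n = 5 each). Estradiol was highest and exemestane lowest, a span of 1.24-fold between group means. The 5 exemestane libraries had 79.4, 76.7, 76.9, 73.7 and 90.2 CPM, against 99.4, 87.3, 90.8, 82.3 and 102.4 CPM in vehicle libraries. The highest exemestane value belongs to replicate 5, the only exemestane library of class A, and the lowest vehicle value to replicate 4, the only vehicle library of class B, so the 2 ranges overlapped. The log2 fold change of Slc2a1 in exemestane was -0.22 ± 0.086 (SE; edgeR quasi-likelihood test, adjusted p = 0.0858), which did not pass the threshold of 0.05. Slc2a3, the neuronal transporter, spanned only 1.08-fold between group means, with 128.5 ± 6.28 CPM in estradiol as the highest and 119.5 ± 6.98 CPM in vehicle as the lowest. No group moved it past the threshold, and neighbouring groups in that order differed by less than their SD.

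No enzyme of the first steps passed the threshold against vehicle in any group. Hk1, the main brain hexokinase, ranged over groups between 237.8 ± 15.4 CPM in exemestane and 267 ± 19.5 CPM in anastrozole, with 258.4 ± 15 CPM in vehicle. Pfkm, the muscle-type phosphofructokinase subunit that brain also makes, averaged 354 ± 9.13 CPM in sham libraries, 368 ± 15.6 CPM with estradiol, 354 ± 23.2 CPM with anastrozole, 327 ± 24.3 CPM with tamoxifen, 320.7 ± 8.10 CPM with raloxifene, 317 ± 21.5 CPM with exemestane and 346 ± 15.2 CPM with vehicle. Its lowest log2 fold change against vehicle was -0.13 ± 0.055 in exemestane (edgeR, adjusted p = 0.112). Aldoa had 986, 956, 994, 1058 and 1245 CPM in exemestane libraries and 1001, 1048, 1076, 1039 and 1046 CPM in raloxifene libraries, against 1257, 1198, 1259, 977 and 1139 CPM in vehicle libraries. Here too the high exemestane value is replicate 5 and the low vehicle value is replicate 4. Estradiol libraries had the highest mean of Aldoa, 1305 ± 45.3 CPM, against 1166 ± 117 CPM in vehicle, a log2 fold change of 0.16 ± 0.078 (edgeR, adjusted p = 0.533). Aldoc averaged 468.9 ± 57.0 CPM in exemestane, the lowest group, and 583.9 ± 88.8 CPM in sham, the highest, against 523 ± 56.9 CPM in vehicle. The sham mean of Aldoc includes 741 CPM in replicate 1, whereas the other 4 sham libraries lay between 531 and 558 CPM.

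Pgk1, which makes ATP from 1,3-bisphosphoglycerate, was the single member that passed the threshold against vehicle. It had 298, 290.2, 292, 271 and 302 CPM in raloxifene libraries, against 268, 254, 263, 247 and 258.5 CPM in vehicle libraries. Every raloxifene library lay above every vehicle library, as in 11% of all genes. The log2 fold change was 0.17 ± 0.048 (SE; 95% interval 0.07 to 0.27), with an adjusted p of 0.0154 by edgeR and of 0.00209 by DESeq2. Pgk1 was 1 of 10 members called, where 24.8% of all 14411 tested genes were called in this comparison and 13.4% were called higher. With class in the model the log2 fold change was 0.13 ± 0.050 (edgeR, adjusted p = 0.819), and within class B alone, which holds 1 vehicle library, it was 0.22 ± 0.073 (adjusted p = 0.212). Markers also differed between these groups: summed oligodendrocyte markers were 5135 to 6107 CPM in raloxifene and 6359 to 7913 CPM in vehicle, and neuronal markers 5284 to 5655 CPM in raloxifene and 5636 to 6123 CPM in vehicle. Gene by gene the neuronal markers went both ways, with 4 of 9 called higher in raloxifene and 1 lower. Of 10 oligodendrocyte markers 0 were called higher and 4 lower, where 11.4% of all genes were called lower. The part of class and of these cell types in the Pgk1 difference was not tested beyond those fits. Tamoxifen libraries of Pgk1 had 276, 271, 282, 293 and 293 CPM, also all above vehicle (0.562% of genes), with a log2 fold change of 0.13 ± 0.048 that missed the threshold (edgeR, adjusted p = 0.213).

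Pkm, the last ATP-making enzyme of the pathway, showed the widest span between group means, 1.26-fold. It had 824, 801.5, 860.3, 850.0 and 892 CPM in estradiol libraries, against 780.0, 789, 769, 678 and 738 CPM in vehicle libraries. The estradiol range lay wholly above the vehicle range, as in 1.88% of genes. The log2 fold change was 0.17 ± 0.067 (95% interval 0.04 to 0.31), with an unadjusted p of 0.0145 and an adjusted p of 0.441 by edgeR, so it was not called. The highest vehicle value, 789 CPM, is of class A, and the class B vehicle library is the lowest, at 678 CPM. Leaving out the class B library therefore could not change the order of the ranges. In raloxifene libraries Pkm lay between 668 and 696 CPM and in exemestane libraries between 633 and 764.5 CPM, the highest being replicate 5.

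Neither lactate dehydrogenase passed the threshold against vehicle in any group. Ldhb had 248, 251.5, 245, 240.2 and 234 CPM in raloxifene libraries, against 303, 276, 304, 229.9 and 263 CPM in vehicle libraries. The log2 fold change was -0.18 ± 0.084 (edgeR, adjusted p = 0.114), and vehicle replicate 4, of class B, was the lowest of all 10 values. Ldha had 222, 210.0, 224, 212 and 232 CPM in raloxifene libraries, against 209, 219, 206, 216 and 201 CPM in vehicle libraries, and the ranges overlapped. Its log2 fold change was 0.07 ± 0.061 (edgeR, adjusted p = 0.414). Over the 7 groups Ldha spanned 1.10-fold between means and Ldhb 1.23-fold. The lowest Ldha value of all, 161 CPM, and the highest Ldhb value of all, 354 CPM, came from sham replicate 1.

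**Figure D1:**
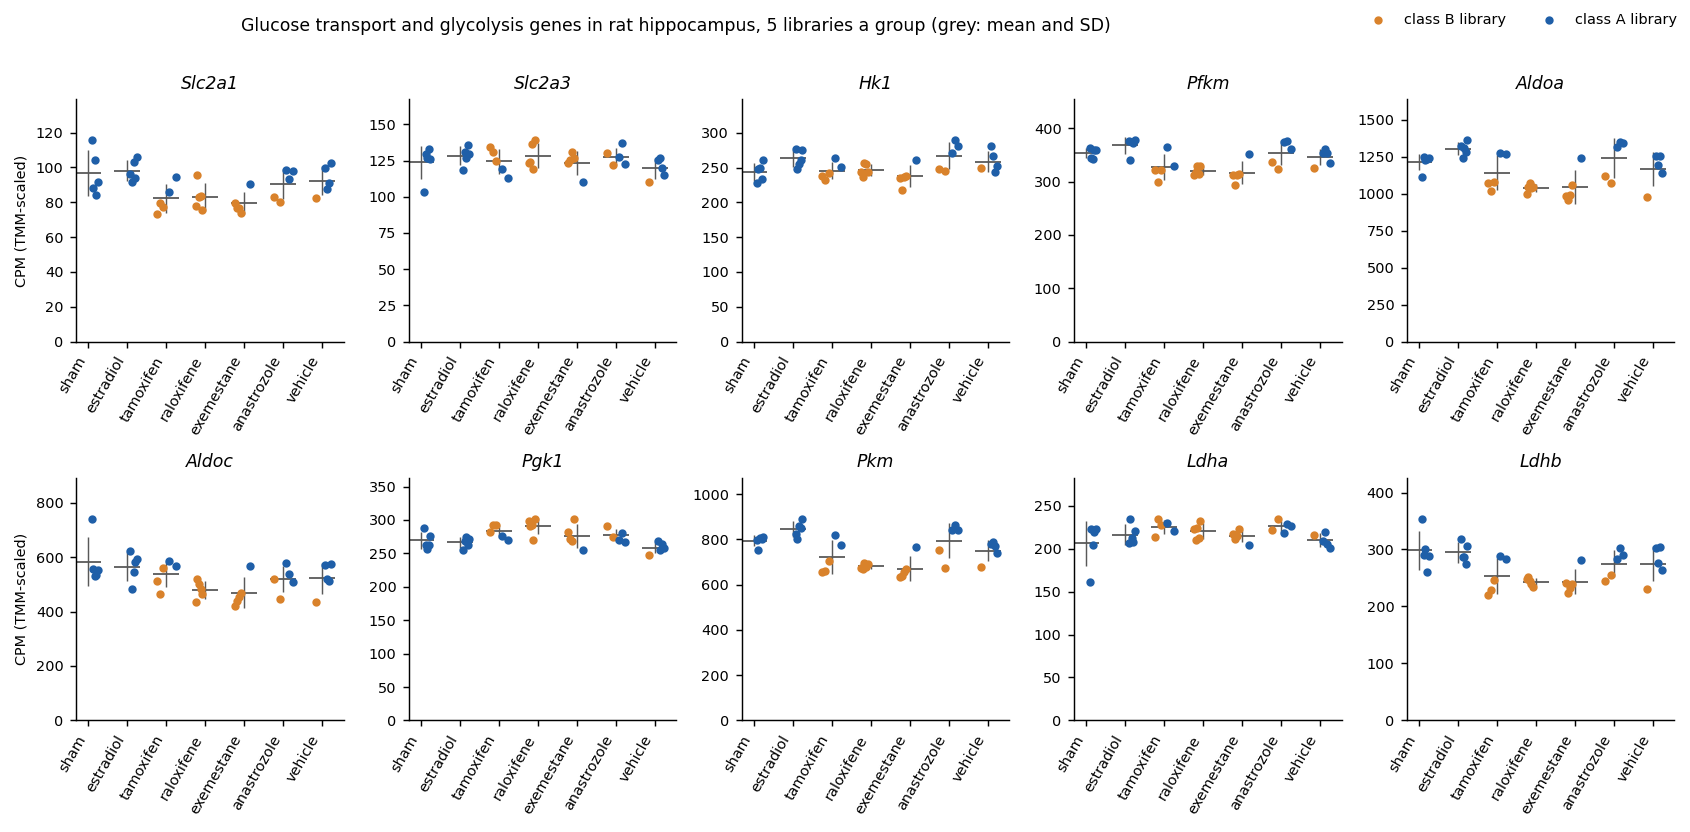
CPM (TMM-scaled counts, linear axis from 0) of each gene in each library, by group, with class B libraries in orange and class A libraries in blue; grey lines give the group mean and SD over 5 libraries. Aldoa, Pkm, Pfkm and Ldhb libraries of class B sit at the low end of their groups, while Slc2a3, Pgk1 and Ldha do not show this order.

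Set against vehicle group by group, the pathway showed few changes. In sham rats no member passed the threshold (background 0% of genes), the member median log2 fold change was 0.06 (0.05 without sham replicate 1), and 0 members had an unadjusted p under 0.05 by edgeR, where 6.81% of genes did. In estradiol rats no member passed (background 0.00694%), although 10 of 10 log2 fold changes were positive, with a median of 0.09 against -0.01 over all genes; 2 members, Pkm and Aldoa, had an unadjusted p under 0.05, where 9.13% of genes did. In tamoxifen rats no member passed (background 0%), the median was -0.04, and only Pgk1 had an unadjusted p under 0.05, where 16.4% of genes did. In raloxifene rats the median was -0.12 against -0.02 over all genes, with 7 members negative, and 4 members (Pgk1, Pkm, Ldhb and Aldoa) had an unadjusted p under 0.05, where 39.3% of genes did. In exemestane rats no member passed, where 6.51% of all genes did, and the median was -0.14 with 7 members negative; 5 members, namely Slc2a1, Hk1, Pfkm, Pkm and Ldhb, had an unadjusted p under 0.05, where 31.4% of genes did. In anastrozole rats no member passed (background 0%), the median was 0.06, and only Pgk1 had an unadjusted p under 0.05, where 2.87% of genes did. DESeq2 called 1 member in raloxifene, again Pgk1 (background 31.2%), and none in sham (0.0764%), estradiol (0.199%), tamoxifen (0.667%), exemestane (17.9%) or anastrozole (0.00694%). All 6 comparisons share the vehicle libraries, so they are not independent of one another. Over the 6 comparisons the 95% intervals of the members' log2 fold changes reached -0.39 at their lowest, for Slc2a1 in exemestane, and 0.35 at their highest, for Aldoc in sham.

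The number of members called moved with exemestane replicate 5 and vehicle replicate 4. Without exemestane replicate 5, 6 members were called lower in exemestane than in vehicle, where 14.1% of all genes were called lower in that fit: Slc2a1 (log2 fold change -0.27), Hk1 (-0.16), Pfkm (-0.17), Aldoa (-0.22), Pkm (-0.21) and Ldhb (-0.23). Without vehicle replicate 4, Aldoa (-0.20) and Ldhb (-0.22) joined Pgk1 in raloxifene, so that 3 of 10 members were called where 31% of all genes were, and 13.9% were called lower. With class in the model and all libraries kept, Aldoa (0.08) and Ldhb (0.05) were positive in raloxifene, and Aldoa (0.02) was positive in exemestane. With class in the model no member was called in any of the 6 comparisons, where 0.0416% of genes were called in sham, 0.298% in estradiol, 0.00694% in raloxifene and 0% in the other 3. The member medians in that model were 0.03 for sham, 0.06 for estradiol, 0.08 for anastrozole, 0.04 for tamoxifen, 0.05 for raloxifene and -0.01 for exemestane. In that model all 10 members were positive in raloxifene and in anastrozole, the highest in anastrozole being Aldoa (0.15 ± 0.040, edgeR, adjusted p = 0.439). Members with an unadjusted p under 0.05 in that model numbered 1 for sham, 2 for estradiol, 3 for anastrozole, 2 for tamoxifen, 1 for raloxifene and 0 for exemestane, where 5.3% (raloxifene) to 10.2% (estradiol) of all genes did. Among class A libraries alone the medians were 0.03 in sham, 0.06 in estradiol and 0.08 in anastrozole, with no member called. The count of positive members varied between fits. With class in the model and total count scaling, 8 were positive in raloxifene and 10 in anastrozole. Within class B alone, which holds 1 vehicle library, 6 were positive in raloxifene and 8 in anastrozole. Within class A alone 9 were positive in anastrozole.

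**Figure D2:**
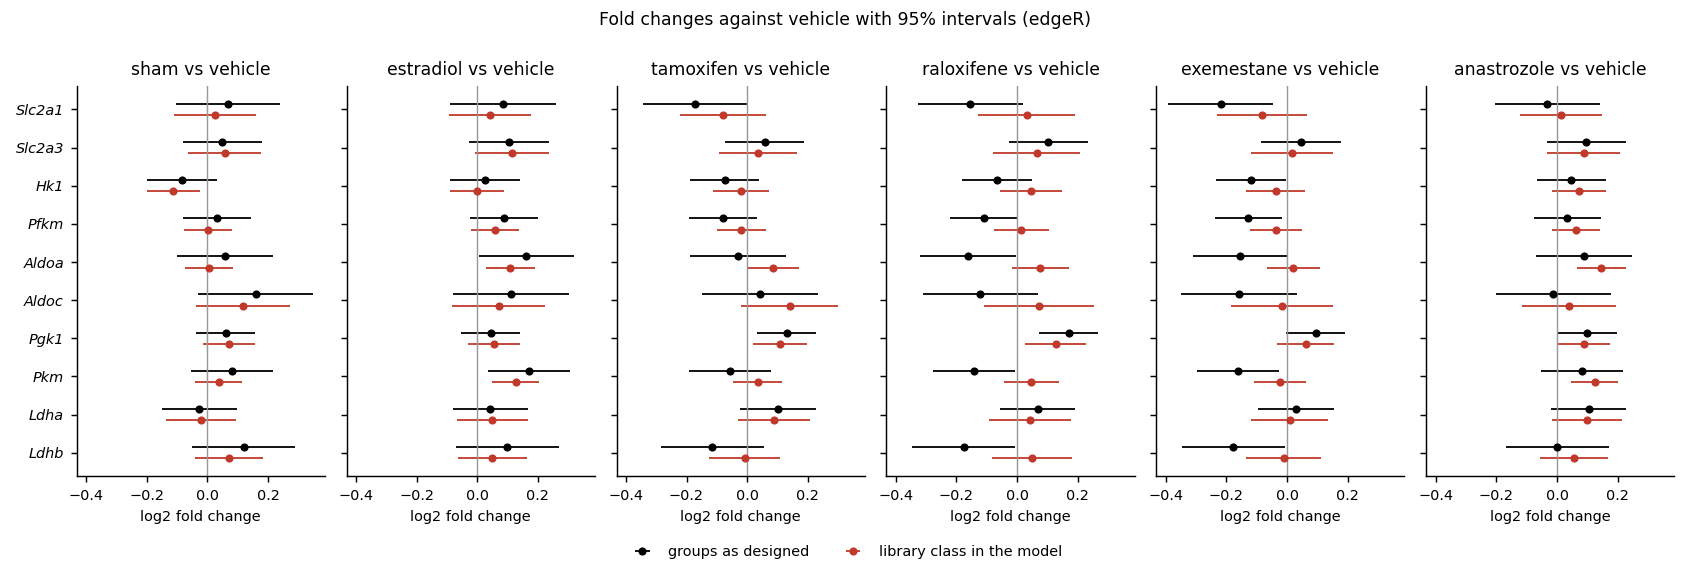
Log2 fold changes against vehicle (horizontal axis) with 95% intervals for the 10 genes, as the groups were designed (black) and with library class in the model (red). The raloxifene and exemestane estimates of Slc2a1, Pfkm, Aldoa, Pkm and Ldhb are negative in black and lie nearer to 0 or above it in red, whereas Pgk1 in raloxifene stays positive in both, at 0.17 and 0.13.

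Tested for any difference among the 7 groups at the same time, 5 of 10 members passed, where 37% of all genes did: Pkm (adjusted p = 0.0012), Aldoa (0.0058), Pfkm (0.0084), Ldhb (0.0104) and Slc2a1 (0.0146), by edgeR. DESeq2's likelihood ratio test called 8 members, against 41.5% of genes. With class in the model no member passed by edgeR, where 0.0278% of genes did, and 3 members had an unadjusted p under 0.05, where 12.7% of genes did.

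Between library classes the pathway split into genes that fell and genes for which no difference was called. In the edgeR fit with group and class, 7 of 10 members were lower in class B than in class A and none was higher, where 26.3% of all genes were called lower, 25.5% higher and 51.9% in either direction. The 10 members were among the 14051 genes whose counts helped define class, so the p-values below are not independent of the split. Aldoa fell by 0.29 on the log2 scale (SE 0.031, adjusted p = 7.57e-10), Ldhb by 0.27 (SE 0.044, adjusted p = 2.1e-06), Aldoc by 0.24 (SE 0.059, adjusted p = 0.00105) and Pkm by 0.23 (SE 0.030, adjusted p = 4.1e-08). Slc2a1 fell by 0.23 (SE 0.052, adjusted p = 0.000353), Pfkm by 0.15 (SE 0.030, adjusted p = 5.1e-05) and Hk1 by 0.14 (SE 0.034, adjusted p = 0.000798). The other 3 genes passed in neither direction: Pgk1 had a log2 difference of 0.05 (95% interval -0.01 to 0.12), Slc2a3 of 0.05 (-0.05 to 0.14) and Ldha of 0.03 (-0.06 to 0.12). The member median was -0.19, against -0.01 over all genes. With the submitters' gene-wise factors the median was -0.12, Pgk1 passed as higher (0.15) and Slc2a3 had -0.01. Ldhb separated the classes without overlap, at 221 to 255 CPM with a median of 240.2 CPM in the 15 class B libraries, against 261 to 354 CPM with a median of 289 CPM in the 20 class A libraries; 3.8% of all genes separated in that direction. Aldoa ran from 956 to 1119 CPM in class B and from 1117 to 1365 CPM in class A libraries, so that the ranges met only at their ends. Summed over the 10 genes, the pathway took 0.345% to 0.398% of counts in class B libraries and 0.395% to 0.453% in class A libraries.

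The class term of the fit with group and class rests on the treatment groups that held both classes. Values inside those groups are therefore the same evidence, given here by library. In tamoxifen rats Aldoa had 1070, 1022 and 1079 CPM in the 3 class B libraries, against 1273 and 1268 CPM in the 2 class A libraries. In anastrozole rats it had 1119 and 1071 CPM in the 2 class B libraries, against 1319, 1348 and 1345 CPM in the 3 class A libraries. Within tamoxifen, 7 of 10 members had class B ranges wholly below the class A range and 2, Slc2a3 and Pgk1, wholly above, where 27.1% of all genes lay below and 27.2% above. Within anastrozole, 6 members lay wholly below and 0 wholly above, where 27.7% of all genes lay below. The 6 members below in both groups were Slc2a1, Hk1, Pfkm, Aldoa, Pkm and Ldhb, where 18.3% of all genes were below in both. The vehicle group, with 1 class B library, and the exemestane group, with 1 class A library, had member medians of -0.16 and -0.21 for class B over class A on the log2 scale.

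**Figure D3:**
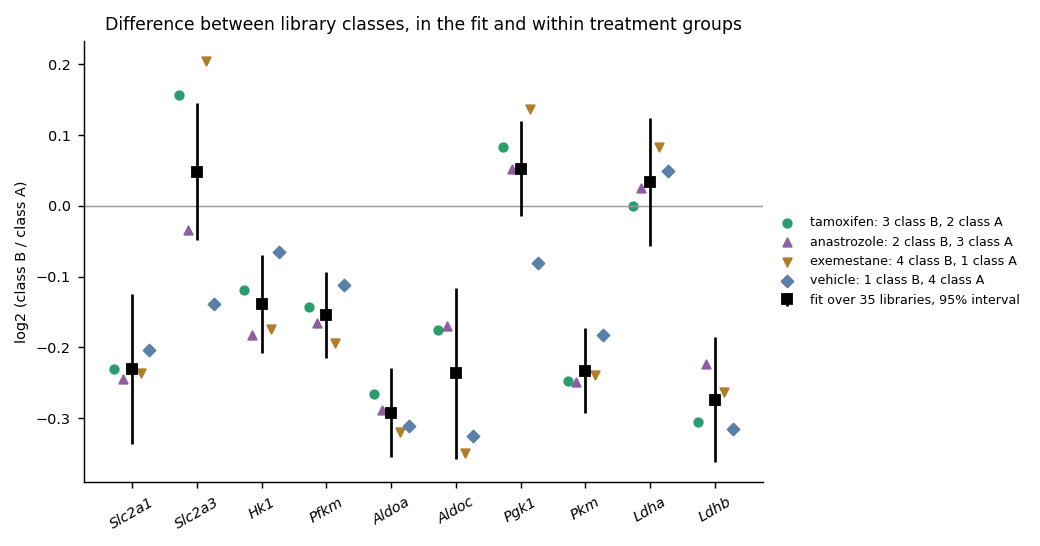
Log2 difference of class B over class A libraries for each gene: black squares with 95% intervals from the fit over 35 libraries, coloured marks from means within the 4 groups that hold both classes. The class term of the fit rests on these same groups. Slc2a1, Hk1, Pfkm, Aldoa, Aldoc, Pkm and Ldhb lie below 0 in every group, while Slc2a3 and Pgk1 have marks on both sides of 0 and those of Ldha lie near or above it.

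Markers of cell types and neighbouring tissue also differed between the classes to some degree. Neuronal markers, 9 of 10 in the table, summed to 5221 to 5804 CPM in class B libraries (median 5577) and to 4154 to 6364 CPM in class A libraries (median 6027). Thalamus and habenula markers, 8 of 10, summed to 262 to 298 CPM in class B (median 273) and to 204 to 485 CPM in class A (median 222). The 485 CPM belonged to sham replicate 1, and every other class A library, up to 236 CPM, lay below every class B library. Endothelial and pericyte markers, 6 of 10, summed to 141 to 209 CPM in class B (median 184) and to 156 to 226 CPM in class A (median 203). Astrocyte markers, 10 of 10, had nearly the same medians, 4739 CPM in class B and 4647 CPM in class A. Oligodendrocyte medians were 5656 CPM in class B and 5780 CPM in class A, and microglial medians 239 CPM in class B and 258 CPM in class A. Sums hide changes of single markers: in class B 3 of 10 astrocyte markers were called higher and 2 lower. Of 10 oligodendrocyte markers 4 were higher and 2 lower, and of 9 neuronal markers 2 were higher and 5 lower. Of 10 microglial markers 0 were higher and 5 lower. Over all genes 25.5% were called higher and 26.3% lower. Blood markers ran from 39.9 to 126 CPM in class B and from 26.8 to 231 CPM in class A, choroid plexus markers from 5.02 to 3494 CPM in class B and from 4.95 to 3297 CPM in class A, and hippocampal field markers from 861 to 1017 CPM in class B and from 574 to 1049 CPM in class A. The part of these markers, of Rn7sl1 and of the mitochondrial share, which had a median of 13.4% in class B and 9.58% in class A, in the difference between classes was not tested.

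Ratios of related genes within a library need no depth scaling. The count ratio of Ldha to Ldhb was 0.835 to 1.02 in class B libraries (median 0.922) and 0.454 to 0.842 in class A libraries (median 0.759). In raloxifene rats, all of class B, the log2 ratio averaged -0.15 ± 0.092, against -0.38 ± 0.19 in vehicle (SD, n = 5 each), a difference of 0.24 with an exact two-sided permutation p of 0.0476 over 252 splits. Adjusted over the 18 ratio tests made, that p was 0.333, so it did not pass. The vehicle library of class B had a ratio of 0.939, inside the raloxifene range of 0.835 to 0.995. The ratio of Slc2a1 to Slc2a3 had a median of 0.622 in class B libraries and of 0.783 in class A libraries, with overlapping ranges, and its log2 differences from vehicle were -0.26 in raloxifene and -0.26 in exemestane, each with an exact permutation p of 0.0556 (adjusted p = 0.333). The ratio of Aldoa to Aldoc was 1.93 to 2.40 in class B libraries (median 2.19) and 1.51 to 2.64 in class A libraries (median 2.26). None of the 18 ratio tests passed after adjustment, the lowest exact permutation p being that of Ldha to Ldhb in raloxifene. With 252 splits, no single ratio could pass the adjustment over 18 tests on its own, however large its difference. The lack of a pass therefore does not show that the ratios were equal.

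**Figure D4:**
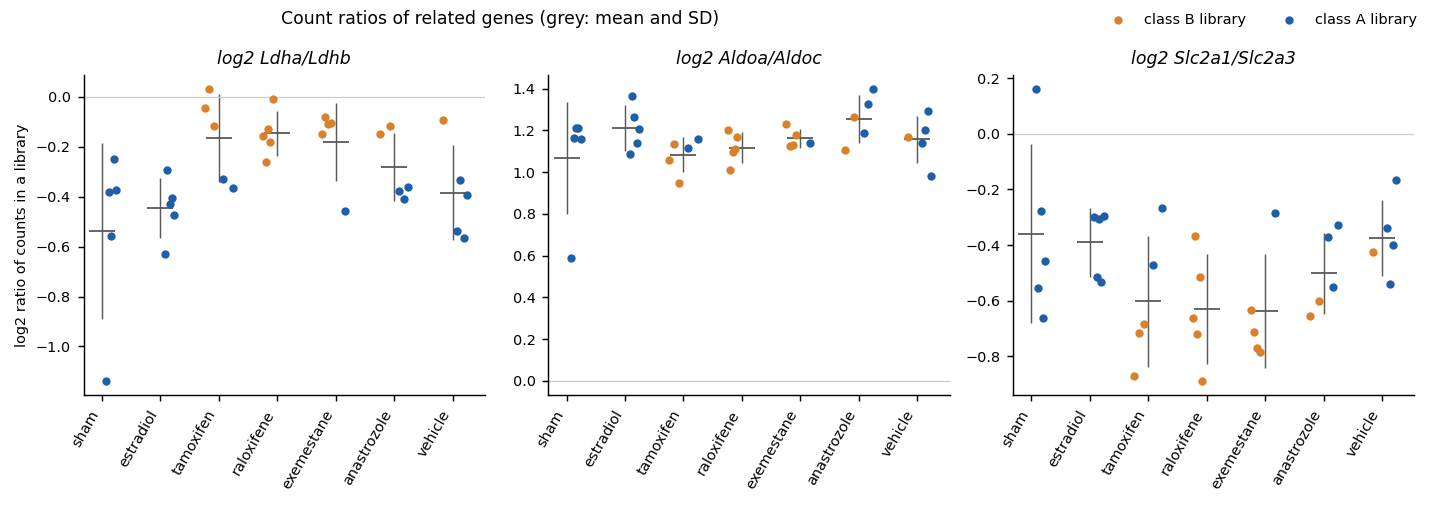
Log2 ratio of counts of related genes in each library (vertical axis), by group, with class B libraries in orange, class A in blue, and grey lines for the mean and SD. Class B libraries have higher Ldha/Ldhb ratios than the class A libraries of the same group in tamoxifen, exemestane, anastrozole and vehicle rats, and sham replicate 1 is lowest for Ldha/Ldhb and for Aldoa/Aldoc.

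Genes next to these in the pathway were tested in the same fits, and are given as counts for each list to be read beside the share of all genes called, which was 51.9% by class (25.5% higher and 26.3% lower), 24.8% in raloxifene (13.4% higher) and 6.51% in exemestane. Of the other glycolytic enzymes, 11 of 18 were tested, and 5 fell and 0 rose in class B against class A: Gapdh (log2 difference -0.29), the isomerase Gpi (-0.22), the enolase Eno1 (-0.22) and the liver-type phosphofructokinase Pfkl (-0.36) were those of smallest p. In the comparison of raloxifene with vehicle 2 of the 11 fell, Pfkl (-0.40 ± 0.12, edgeR, adjusted p = 0.0193) and Gapdh (-0.27 ± 0.082, adjusted p = 0.0205). Of 8 other sugar transporters tested, 3 fell and 1 rose by class: the lysosomal transporter Slc2a6 (-0.49), the fructose transporter Slc2a5 (-0.55) and Slc2a10 (-0.69) fell, and the myo-inositol transporter Slc2a13 (0.26) rose. Of 6 pentose phosphate genes, the epimerase Rpe (0.52) rose, and the transketolase Tkt (-0.27) and the lactonase Pgls (-0.79) fell.

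Among genes that take pyruvate onward, more rose than fell by class. Of 11 genes of the pyruvate dehydrogenase complex and its control, 6 rose and 1 fell in class B against class A, with a median log2 difference of 0.22. Those of smallest p were Pdha1 (0.44) and Pdhb (0.22), which encode the E1 subunits, Dld (0.50), the E3 subunit, and the inhibitory kinase Pdk2 (-0.32). Against vehicle, 5 of these 11 rose in raloxifene, among them Dlat, the E2 subunit (0.35 ± 0.072, edgeR, adjusted p = 0.0091), Dld (0.49), Pdha1 (0.40) and the kinase Pdk3 (0.40). In exemestane 3 rose, Dlat (0.30), Pdk3 (0.38) and Dld (0.43), and Pdk2 (-0.31) fell. Of 7 genes of lactate and pyruvate transport, 3 rose and 2 fell by class: the mitochondrial pyruvate carrier subunits Mpc1 (0.39) and Mpc2 (0.37) and the monocarboxylate transporter Slc16a7 (0.40) rose, and Bsg (-0.18), the chaperone of such transporters, fell. The same 3 rose and Bsg fell in raloxifene against vehicle, with log2 fold changes of 0.37 for Mpc1, 0.53 for Mpc2, 0.52 for Slc16a7 and -0.23 for Bsg. Glycogen genes were divided, with 5 of 12 up and 3 down by class, among them Ugp2 (0.62), which makes UDP-glucose, and the kinase subunit Phkb (0.24) up, and the phosphorylases Pygm (-0.35) and Pygb (-0.27) down. Of 19 regulators 4 rose and 4 fell by class, including Prkaa1 (0.63), the catalytic subunit of AMP-activated kinase, and Hif1a (0.35) up, and the oxygen sensor Egln2 (-0.49) and the deacetylase Sirt6 (-0.26) down. With class in the model, no gene of these 7 lists was called in any comparison of a group with vehicle.

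**Figure D5:**
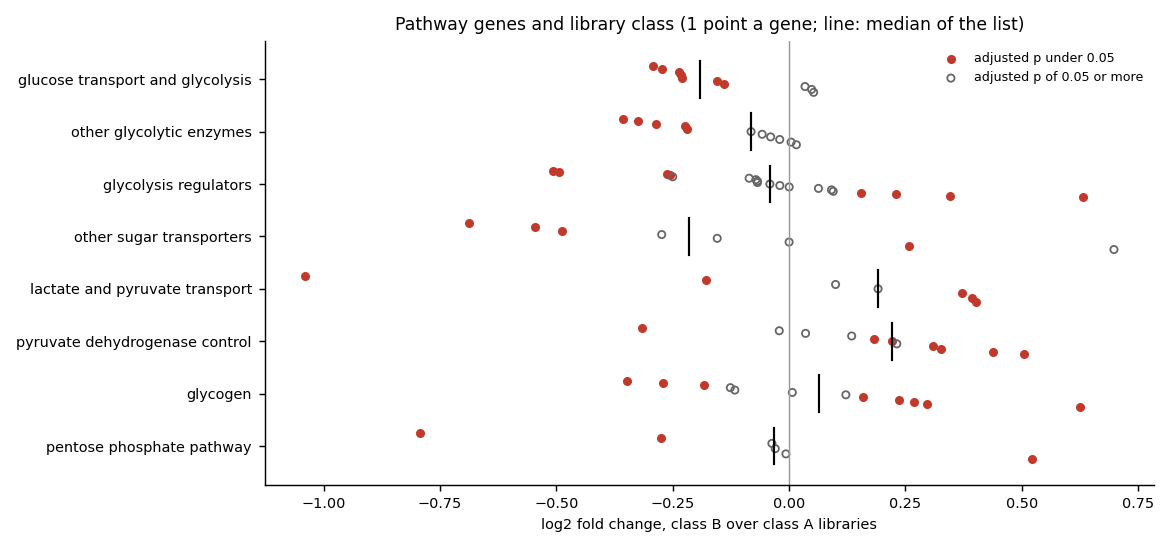
Log2 difference of class B over class A libraries (horizontal axis) for each tested gene of the pathway lists, 1 point a gene, filled where the edgeR adjusted p is under 0.05; the vertical bar is the median of the list. The median is -0.19 for glucose transport and glycolysis and 0.22 for pyruvate dehydrogenase control.

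The genes whose log2 CPM followed the members most closely were found by Pearson correlation within the 15 class B and within the 20 class A libraries, ranked by the lower of the 2 values. These correlations are descriptions, since the libraries share groups, depth and dissection. Slc2a1 was most like Epas1 (r = 0.684 in class B and 0.731 in class A), a hypoxia-inducible factor of endothelium and astrocytes. Aldoc was most like Ndrg2 (0.794 in class B and 0.772 in class A) and Acsbg1, both astrocyte genes. Slc2a3 was most like Kcnf1 (0.768 in class B and 0.842 in class A), and Aldoa and Pkm both had the translation factor Eef1a2 among their nearest, at 0.828 in class B and 0.813 in class A for Aldoa. Pgk1 was nearest to Ppia (0.682 in class B and 0.704 in class A) and Tpi1, which encodes triose phosphate isomerase. Hk1 was nearest to Mgrn1 (0.772 in class B and 0.725 in class A), Ldha to Slc1a1 (0.703 in class B and 0.712 in class A) and Ldhb to Ache (0.734 in class B and 0.658 in class A).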

How the data were processed

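The submitters' processing notes name Salmon and DESeq2 without saying which step each did. The deposited expected counts are whole numbers for each gene, not scaled for depth, and were treated here like the estimated counts that Salmon gives. The other deposited table is a normalized signal whose ratio to the counts varies by gene and by library. Per the labels, libraries were stranded and poly(A)-selected, with paired reads of 100 bp and a target of 30 M reads. Genome build, annotation and versions are not given in the sources used here, so reads of processed pseudogenes of Aldoa, Pgk1, Pkm and Ldha cannot be separated from the genes. Of 15059 symbols 13091 matched RefSeq, including the 10 members.

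Counts were tested with edgeR 4.0.16 (R 4.3.3; TMM, filterByExpr, robust quasi-likelihood F-test, 35 libraries, 7 groups), with Benjamini-Hochberg adjustment over 14411 genes and a threshold of 0.05. Standard errors come from the fold and its F statistic. DESeq2 1.42.0 was an alternative. The code was tested on simulated data. The common biological coefficient of variation was 0.152. CPM is not per length, so levels are not compared between genes. Ratios of related genes were tested by exact permutation over all splits, coded directly in Python 3.11.15. Library class is the sign of the first component of the centred log ratio of the 2 tables over 14051 genes, the members included. Replicate pairs within a group differed by 2.46 to 33.9 times counting error (chi-squared per degree of freedom), so no such pair matched to within counting error. Pairs from different groups were not compared, and separate preparations from the same animal could not be recognized this way. Members, lists and class were chosen with earlier results of these data known. Named pathway genes are up to 4 called genes of smallest p for each list and comparison, and the nearest genes are those with the highest lower within-class correlation. Correlation used log2 CPM with a prior count of 2. The nearest gene of Pfkm is not reported here.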

Additional observations from a re-analysis of the deposited data

Results flagged for a closer look

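Of the 91 sets of 5 libraries examined, 8 held a library far from the other 4 (a gap over the range above 0.71), and chance alone gives about 1 in 20. Sham replicate 1 accounts for 4 of them: Slc2a3 was lowest there at 103.6 CPM (others 126.0 to 132.9), Aldoa lowest at 1117 CPM (others 1230.0 to 1250.0), Aldoc highest at 741.4 CPM (others 531.4 to 558.2), and the log2 ratio of Aldoa to Aldoc lowest at 0.5909 (others 1.161 to 1.211). That library also had the highest sum of thalamus and habenula markers, 485 CPM; its part in these values was not tested. Without it the median log2 fold change of the 10 genes in sham against vehicle was 0.05, against 0.06 with it, and no member was called either way. Exemestane replicate 5, the class A library of its group, was highest for Pkm at 764.5 CPM (others 632.6 to 667.8) and lowest for the log2 ratio of Ldha to Ldhb at -0.4567 (others -0.148 to -0.0812). Pkm was lowest in sham replicate 2 at 754.8 CPM (others 797.9 to 811.2), and Pfkm was lowest in estradiol replicate 2 at 340.5 CPM (others 371.4 to 378.2).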

How the results depend on the processing

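In raloxifene against vehicle 1 member was called; with class in the model or within class B alone the count was 0, with only those groups in the fit it was 4 (4817 of all genes called), and leaving out libraries gave 1 to 3 (3 without vehicle replicate 4). For Pgk1 there, the log2 fold change was 0.13 with class (edgeR, adjusted p = 0.819), 0.22 within class B (0.212) and 0.17 to 0.21 with a library left out. In exemestane 0 members were called, and 0 to 6 with a library left out (6 without exemestane replicate 5). Among the 7 groups 5 members were called, 0 with class in the model and 8 by DESeq2, and 5 to 7 with a library left out. Between classes 7 members were called, 7 to 8 with a library left out; with the submitters' gene-wise factors 8 were called, since Pgk1 (0.15) joined as higher, and Slc2a3 had -0.01. Scaling by relative log expression or total counts, no filter on low counts and Ttr as a covariate left the members called against vehicle at 1 in raloxifene and 0 in the other comparisons; among the 7 groups total counts gave 7, Ttr 6 and the submitters' factors 4. Of the values called without vehicle replicate 4 or exemestane replicate 5, Aldoa and Ldhb in raloxifene and Aldoa in exemestane turned positive with class in the model. Over all genes, called genes in raloxifene numbered 3568 as designed, 1 with class, 27 within class B and 924 with the submitters' factors, and in exemestane 938, 0, 110 and 134, with 1979 by DESeq2, 0 with only those groups in the fit, 1472 with Ttr as a covariate and 0 to 4155 with a library left out. In estradiol 1 gene was called, 43 with class, 31 with only those groups, 17 by DESeq2, 9 within class A, 5 with Ttr, 4 with the submitters' factors and 0 to 2 with a library left out. In tamoxifen 0 were called, 92 within class B, 83 by DESeq2, 21 with the submitters' factors and up to 581 with a library left out. In sham 0 were called, 11 by DESeq2, 6 with class, 5 with Ttr and up to 4 with a library left out, and in anastrozole 0, 6 within class B and 1 by DESeq2. Among groups 5329 were called, 4 with class and 2551 with the submitters' factors. The cause was not tested. Within class A or B alone some groups keep 1 library, assumed to vary like the others. The lowest count of a member in any library was 423. No paired analysis was possible because the titles carry no replicate numbers shared between groups.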
